A study of Mus musculus with 24 samples.

Results

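The comparison described here sets dorsal root ganglia (DRG) taken 6 days into treatment with an agonistic antibody to the lymphotoxin-beta receptor (LTβR) against DRG taken 1 day after its first injection. It holds 6 of the series' 24 RNA-seq libraries, 3 for each time, and was described across all genes. The DRG, which hold the cell bodies of sensory neurons, were the L3-L5 ganglia on the injected side of male C57 mice aged 8 to 12 weeks, and no allele or transgene was labelled. In the day-6 group the antibody (10 μg each time) was given into the hind paw on days 1 and 3. In the day-1 group it was given once, at the same dose, and tissue was taken after 1 day. Another 3 DRG libraries came from mice given 10 μg of IgG into the paw and sampled 1 day later; they shared the fit and are given as the level without agonist. Day 6 therefore differed from day 1 both in time and in the number of injections, which cannot be told apart, and the IgG group has no day-6 counterpart. Whether the 6 days run from the first injection, as in the titles, or from the last, as in the series description, is uncertain. Nothing in the labels says which replicates were separate mice or pools, so p-values measure the spread between libraries.

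LTβR belongs to the tumour necrosis factor receptors and is carried by stromal, endothelial and myeloid cells. Its ligands and agonistic antibodies stabilise the kinase NIK, which triggers the processing of the p100 product of Nfkb2 to p52, and the p52 partner RelB then carries the non-canonical NF-κB signal; the receptor also activates the canonical arm. In lymphoid stroma this pathway drives chemokine and adhesion molecule genes. In a sensory ganglion, neurons are wrapped by satellite glia, and vessels, fibroblasts and resident macrophages lie between them.

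The 6 agonist libraries held 29.5 to 34.2 reads in genes in units of 1e6, and the 9 DRG libraries 21.6 to 34.2. Markers of sensory neurons fitted the label: Avil stood between 905 and 1060 CPM (counts scaled by library size and TMM factor) and Prph between 1490 and 1820 CPM in the 9 libraries. IgG library 1 stood apart, with 31.5% of its reads outside annotated genes, against 13.1 to 13.8% in the other 8. Other features touched the agonist libraries: interferon-stimulated genes were highest in day-1 library 2, and skeletal muscle genes varied widely between the libraries of a group. No libraries of a group held the same values.

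Of 15461 genes tested, 16 (0.103%) differed between day 6 and day 1 at an adjusted p under 0.05 in edgeR's quasi-likelihood test, 14 lower (0.0906%) and 2 higher (0.0129%). The lower genes encoded a chemokine (Cx3cl1), a growth factor of macrophages (Csf1), 2 endothelial adhesion molecules (Icam1, Vcam1), 3 NF-κB genes (Nfkb2, Nfkbie, Tnfaip3), a prostaglandin synthase (Ptges) and 6 others. The higher genes were Folh1 and Cenpf. In all 16 the day-6 and day-1 values did not overlap, which held for 929 genes upwards (6.01%) and 1001 downwards (6.47%) over the whole table. Without any adjustment, 1056 genes (6.83%) had a p under 0.05, of which 433 were higher (2.8% of those tested) and 623 lower (4.03%). The median log2 fold change of all genes, day 6 minus day 1, was -0.0039. The number of calls rested on single libraries: it was 8 without day-6 library 1, 2 without library 2 and 2 without library 3, and 1, 11 and 24 without day-1 library 1, 2 and 3. Cx3cl1 alone passed in each of those 6 fits, C1qa passed in none of them, and the other 14 genes passed in 1 to 4.

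**Figure D1:**
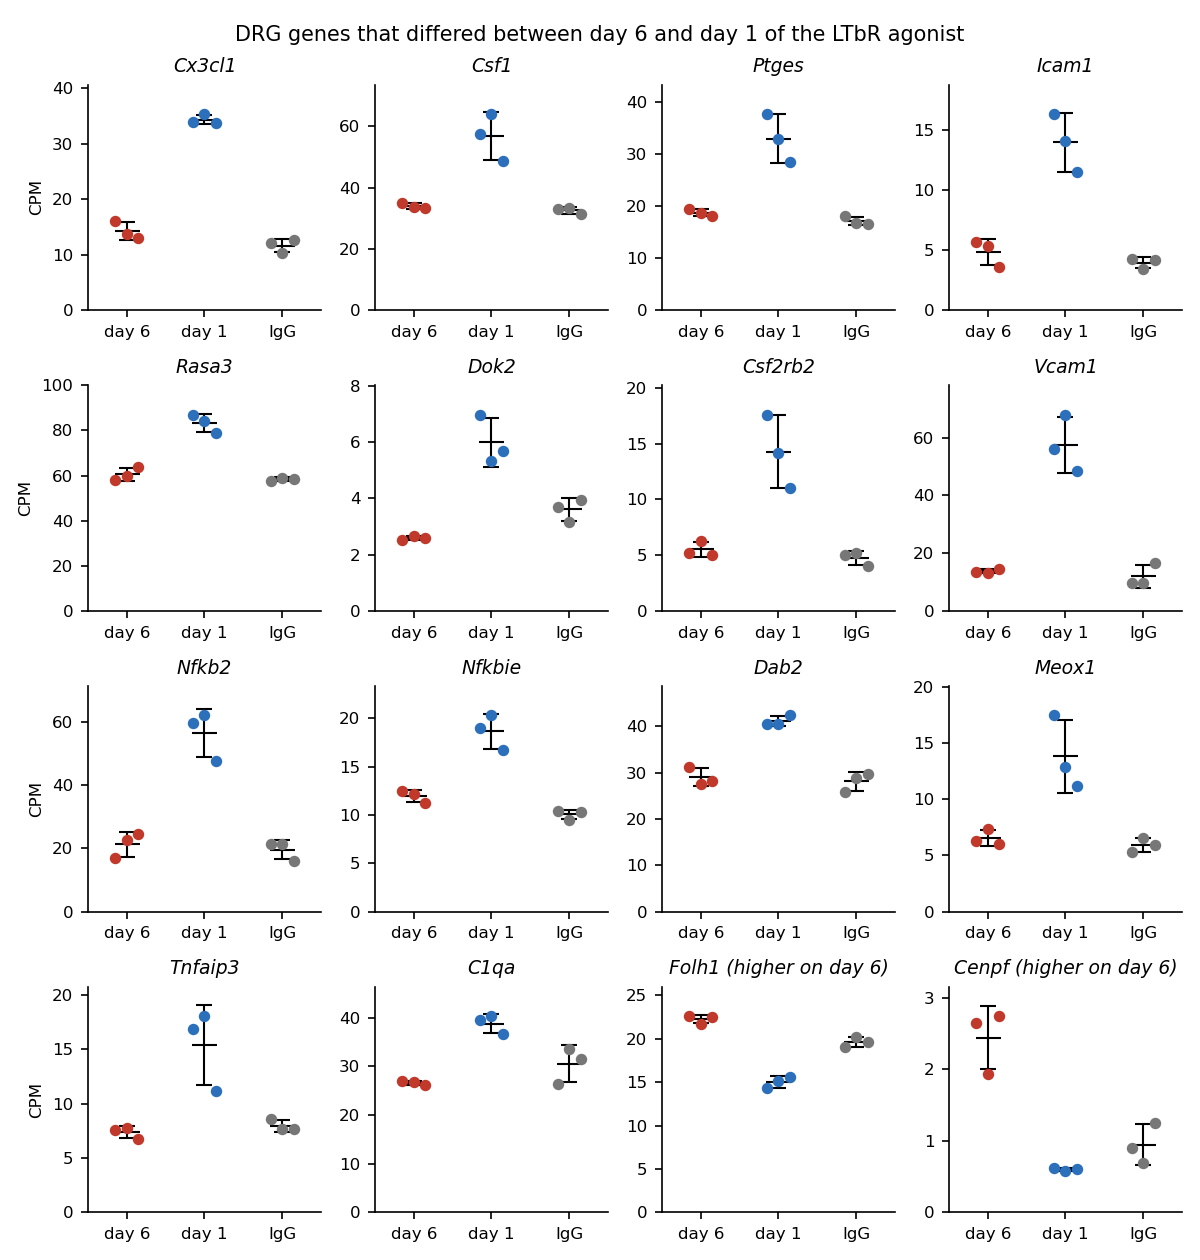
Level in CPM (vertical axis, from 0) of the 16 genes past the threshold in each DRG library: day 6 (red), day 1 (blue) and IgG (grey), 3 libraries each, with the mean and SD in black. The day-1 points of 14 genes lie above their day-6 points, and those of Folh1 and Cenpf lie lower.

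Nfkb2, Nfkbie and Tnfaip3, genes of the NF-κB system, fell. Nfkb2, the p100 and p52 precursor, had 16.8, 22.7 and 24.4 CPM on day 6, against 59.7, 61.9 and 47.7 CPM on day 1. The IgG libraries had 21.4, 21.2 and 16.0 CPM of Nfkb2, so the day-6 values overlapped with them and the day-1 values lay above both. The log2 fold change, day 6 minus day 1, was -1.41 ± 0.17 (SE; edgeR adjusted p = 0.0245). Tnfaip3, which encodes the ubiquitin-editing inhibitor A20, had 7.58, 7.80 and 6.78 CPM on day 6, against 16.9, 18.03 and 11.2 CPM on day 1. Its log2 fold change was -1.05 ± 0.16 (SE; edgeR adjusted p = 0.0375), with IgG at 7.63 to 8.59 CPM. Nfkbie, the inhibitor IκBε, had 12.5, 12.1 and 11.3 CPM on day 6, against 19.0, 20.3 and 16.7 CPM on day 1, a log2 fold change of -0.65 ± 0.09 (SE; edgeR adjusted p = 0.0249). Day-1 library 3 was the lowest of the 3 day-1 libraries for each of these genes.

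The list of LTβR and non-canonical NF-κB genes held 12 tested genes, of which 1 (Nfkb2) fell. Of these, 7 were lower at an unadjusted p under 0.05, where 4.03% of all genes were, and 11 of 12 had a negative log2 fold change, against 51.5% of all genes; the median was -0.25. Without day-1 library 2, 4 of the 12 were lower at that level. Relb, the DNA-binding partner of p52, had 15.6, 14.8 and 13.9 CPM on day 6, against 24.6, 27.4 and 20.7 CPM on day 1, without overlap. It lay just outside the threshold (log2 fold change -0.72 ± 0.12, SE; edgeR adjusted p = 0.0795). Birc3, a ubiquitin ligase of the receptor complex, lay there too, at -0.78 ± 0.14 (SE; edgeR adjusted p = 0.0885). The receptor gene Ltbr had 38.7, 37.8 and 33.2 CPM on day 6, against 37.3, 40.9 and 36.2 CPM on day 1, with overlapping values and a log2 fold change of -0.06 ± 0.07 (SE; edgeR adjusted p = 0.901). Map3k14, which encodes NIK, stood at -0.26 and Birc2 at -0.23 on the log2 scale; Traf2, Traf3 and Traf5, the adaptors of the receptor, stood at -0.24, -0.15 and -0.32, Chuk, the kinase IKKα, at -0.06 and the receptor Tnfrsf14 at -0.67. None of these 7 passed after adjustment. The ligand gene Ltb was under 1 CPM in each agonist library, at 0.976, 0.754 and 0.717 CPM on day 6 and 0.848, 0.578 and 0.714 CPM on day 1. Of the 14 canonical NF-κB and feedback genes tested, 2 fell (Nfkbie and Tnfaip3) and 4 were lower at an unadjusted p under 0.05; the subunit gene Rela stood at -0.14 and Nfkb1 at -0.13 (log2).

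The promoters of the lower genes were searched for the κB motif, read as GGG, any pair of bases and TTTCC, on both strands, in RefSeq windows from 250 bases before to 50 bases after each transcription start (GRCm38.p6; the counts were made on mm9). Of the 14 lower genes 10 had an entry, and 3 of these held the motif: Csf1, Nfkb2 and Tnfaip3. C1qa, Dok2, Meox1 and Vcam1 had no entry. Other spellings of a κB site were not searched, so a window without capitals may still hold one. Counted by window, the motif stood in 5 of the 14 windows of the 10 genes with an entry, 3 of them windows of Nfkb2. Over all windows of genes tested in DRG, 234 of 13832 (1.69%) held it. The motif was not particular to genes that fell, since the same search found it in the promoters of Ltb, Traf2 and Traf3, none of which passed. The windows of the lower genes are shown; capitals mark the motif on either strand, and a match is a description of letters, not of binding. The Csf1 window is chr3:107760420-107760719 on the minus strand, with the motif upstream of the start. Those of Nfkb2 are chr19:46304487-46304786 and chr19:46305445-46305744 on the plus strand. They span different starts of the gene and hold different matches, the first before its start and the second after it. The other Nfkb2 window holds the second match again. The Tnfaip3 window is chr10:19015361-19015660 on the minus strand, and it also holds the E-box CACGTG, found in 9.35% of the same windows.
Csf1: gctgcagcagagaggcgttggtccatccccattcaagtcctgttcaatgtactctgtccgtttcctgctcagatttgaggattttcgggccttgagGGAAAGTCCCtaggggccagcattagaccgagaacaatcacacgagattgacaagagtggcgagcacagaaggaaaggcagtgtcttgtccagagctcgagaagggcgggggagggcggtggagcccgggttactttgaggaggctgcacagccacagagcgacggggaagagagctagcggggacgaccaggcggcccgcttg
Nfkb2, first start: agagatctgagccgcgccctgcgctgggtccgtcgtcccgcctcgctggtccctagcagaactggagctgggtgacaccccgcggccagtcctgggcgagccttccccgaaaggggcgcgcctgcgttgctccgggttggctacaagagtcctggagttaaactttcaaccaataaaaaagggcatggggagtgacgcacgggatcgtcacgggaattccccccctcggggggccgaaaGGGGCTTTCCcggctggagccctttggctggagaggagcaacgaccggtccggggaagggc
Nfkb2, second start: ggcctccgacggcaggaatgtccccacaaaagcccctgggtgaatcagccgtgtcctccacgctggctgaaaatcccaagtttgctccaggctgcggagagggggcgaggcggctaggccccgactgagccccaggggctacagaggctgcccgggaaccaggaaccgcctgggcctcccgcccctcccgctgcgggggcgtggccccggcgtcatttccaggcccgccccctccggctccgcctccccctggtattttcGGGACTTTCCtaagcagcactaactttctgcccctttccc
Tnfaip3: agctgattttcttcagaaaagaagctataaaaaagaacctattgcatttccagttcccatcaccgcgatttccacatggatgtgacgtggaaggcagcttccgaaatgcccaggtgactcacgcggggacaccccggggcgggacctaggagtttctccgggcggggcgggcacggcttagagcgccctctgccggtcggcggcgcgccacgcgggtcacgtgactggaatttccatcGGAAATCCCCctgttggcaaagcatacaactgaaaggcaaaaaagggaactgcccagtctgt

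Adhesion molecules that bind leukocyte integrins were lower on day 6. Vcam1 had 13.6, 13.1 and 14.5 CPM on day 6, against 56.1, 67.9 and 48.5 CPM on day 1, and IgG had 9.58, 9.68 and 16.5 CPM. This was the largest decrease among the 14 lower genes, at -2.07 ± 0.22 on the log2 scale (SE; edgeR adjusted p = 0.0196). Icam1 had 5.65, 5.31 and 3.62 CPM on day 6, against 16.4, 14.1 and 11.5 CPM on day 1, a log2 fold change of -1.52 ± 0.18 (SE; edgeR adjusted p = 0.0107). Day-6 values of both genes were far below every day-1 value and close to those of IgG. The list of adhesion molecules of activated endothelium had 7 tested genes, of which 2 fell. At an unadjusted p under 0.05, 4 were lower, where 4.03% of all genes were, and the median was -0.44. Pecam1, a junction protein of endothelial cells, had 34.0, 33.8 and 32.6 CPM on day 6, against 49.1, 42.8 and 40.9 CPM on day 1 (log2 fold change -0.40 ± 0.07, SE; edgeR adjusted p = 0.0838). Of 22 endothelial identity genes, 3 were higher and 2 lower at an unadjusted p under 0.05, where 2.8% and 4.03% of all genes were. Their median was 0.06. In bulk tissue, fewer cells of a type and less RNA per cell cannot be told apart. Sele and Madcam1 were too low to test, with at most 6 and 3 counts on day 6 and 10 and 6 counts on day 1.

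Among chemokines, Cx3cl1 had the smallest p of the whole table. This gene encodes fractalkine, a chemokine tethered to the membrane of neurons and endothelial cells. It had 16.0, 13.8 and 12.9 CPM on day 6, against 33.9, 35.3 and 33.8 CPM on day 1, and IgG had 12.1, 10.3 and 12.6 CPM. The log2 fold change was -1.27 ± 0.10 (SE; edgeR adjusted p = 0.000617), and with each agonist library left out in turn it stayed between -1.36 and -1.20. Its receptor gene Cx3cr1, carried by macrophages, had 16.0, 11.8 and 10.6 CPM on day 6, against 19.0, 19.9 and 15.5 CPM on day 1; the values overlapped and the change did not pass (log2 fold change -0.50 ± 0.15, SE; edgeR adjusted p = 0.453). All 19 chemokine ligands tested had a negative log2 fold change, where 51.5% of all genes did, with a median of -0.58. Of the 19, 9 were lower at an unadjusted p under 0.05, where 4.03% of all genes were, and 1 fell.

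The ligands of the monocyte receptor Ccr2 had large but uneven differences. Ccl2 had 2.76, 4.16 and 2.19 CPM on day 6, against 24.7, 20.8 and 8.47 CPM on day 1. Its log2 fold change of -2.57 ± 0.42 (SE) did not pass (edgeR adjusted p = 0.133), and day-1 library 3 was the lowest of its group. Ccl7 had 1.89, 3.28 and 2.19 CPM on day 6, against 10.1, 9.67 and 3.94 CPM on day 1, with the same order of the day-1 libraries. Among the 6 fits that left out an agonist library, both genes passed only in the fit without day-1 library 3. Dropping the lowest day-1 library widens the gap between the groups by construction. Over those fits the edgeR adjusted p of Ccl2 reached 0.561. Cxcl10, an interferon-induced chemokine, had 6.00, 2.66 and 2.67 CPM on day 6, against 17.99, 63.1 and 18.1 CPM on day 1, where library 2 held the extreme value. The lymphoid chemokine genes Ccl19 and Ccl21a had 0 counts in the 9 DRG libraries, and Cxcl13 had at most 2 counts on day 6 and 7 on day 1.

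Of 7 colony-stimulating factor and receptor genes tested, 2 fell (Csf1 and Csf2rb2), and the median log2 fold change was -0.14. At an unadjusted p under 0.05, 3 were lower and 1 (Csf3r) higher, where 4.03% and 2.8% of all genes were. Csf1, the growth factor of macrophages, had 35.1, 33.5 and 33.3 CPM on day 6, against 57.6, 64.0 and 48.6 CPM on day 1, and IgG had 33.0, 33.5 and 31.3 CPM. It fell by 0.74 ± 0.09 on the log2 scale (SE; edgeR adjusted p = 0.0107). Its receptor gene Csf1r had 51.1, 56.6 and 55.1 CPM on day 6, against 55.4, 52.1 and 60.1 CPM on day 1, with overlapping values and a log2 fold change of -0.04 ± 0.11 (SE; edgeR adjusted p = 0.958). Il34, the second ligand of Csf1r, stood at -0.14 on the log2 scale. Csf2rb2, a beta chain of the mouse interleukin-3 receptor, had 5.22, 6.29 and 5.02 CPM on day 6, against 17.6, 14.1 and 11.1 CPM on day 1 (log2 fold change -1.37 ± 0.17, SE; edgeR adjusted p = 0.0127). The near-identical Csf2rb had 8.04, 8.13 and 6.62 CPM on day 6, against 18.9, 14.7 and 10.7 CPM on day 1, at -0.96 ± 0.18 (SE; edgeR adjusted p = 0.119); reads shared between these copies make the split between them uncertain. Csf3r, the receptor of granulocyte colony-stimulating factor and also a member of the neutrophil list, had 8.84, 6.72 and 4.04 CPM on day 6, against 4.21, 2.40 and 3.30 CPM on day 1, with overlap (log2 fold change 0.99 ± 0.33, SE; edgeR adjusted p = 0.607). Il2rg, the common gamma chain of several interleukin receptors, had 3.59, 2.52 and 2.51 CPM on day 6, against 5.97, 6.17 and 4.86 CPM on day 1, without overlap but short of the threshold (log2 fold change -0.98 ± 0.24, SE; edgeR adjusted p = 0.265).

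Ptges encodes the inducible synthase of prostaglandin E2, a mediator that sensitises nociceptors. It had 19.4, 18.7 and 17.97 CPM on day 6, against 37.6, 32.7 and 28.4 CPM on day 1, and IgG had 17.99, 16.8 and 16.5 CPM. The log2 fold change was -0.82 ± 0.10 (SE; edgeR adjusted p = 0.0107). It was the only one of 18 prostaglandin synthesis and receptor genes to pass, and their median was 0.02. At an unadjusted p under 0.05, 1 (Ptges) was lower and 1 higher, where 4.03% and 2.8% of all genes were. The largest log2 fold change in the list was 1.34. The prostaglandin synthesis gene Ptgs2 had low and overlapping counts, at 18, 17 and 5 on day 6, against 6, 5 and 4 on day 1. Rasa3, a GTPase-activating protein of Ras and Rap, had 58.1, 59.8 and 63.7 CPM on day 6, against 87.0, 84.1 and 78.9 CPM on day 1, the smallest change among the 14 (log2 fold change -0.46 ± 0.06, SE; edgeR adjusted p = 0.0107).

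The remaining lower genes encode an adaptor of immune cells, an endocytic adaptor, a homeobox factor and a complement chain. Dok2, an adaptor of tyrosine kinase signalling in blood cells, had 2.53, 2.66 and 2.61 CPM on day 6, against 6.98, 5.32 and 5.68 CPM on day 1 (log2 fold change -1.21 ± 0.15, SE; edgeR adjusted p = 0.012). Its IgG values of 3.71, 3.17 and 3.96 CPM lay between the 2 agonist groups. Dab2, the endocytic adaptor, had 31.3, 27.6 and 28.1 CPM on day 6, against 40.5, 40.4 and 42.3 CPM on day 1 (log2 fold change -0.50 ± 0.07, SE; edgeR adjusted p = 0.0253). Meox1, a homeobox transcription factor, had 6.29, 7.38 and 6.00 CPM on day 6, against 17.4, 12.9 and 11.2 CPM on day 1 (log2 fold change -1.08 ± 0.16, SE; edgeR adjusted p = 0.0375). For 12 of the 14 lower genes day-1 library 3 was the lowest of its group.

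The C1q genes, whose products start the classical complement pathway and are made by tissue macrophages, had lower values on day 6. C1qa had 27.0, 26.8 and 26.1 CPM on day 6, against 39.5, 40.3 and 36.6 CPM on day 1, with IgG at 26.3, 33.6 and 31.6 CPM (log2 fold change -0.54 ± 0.08, SE; edgeR adjusted p = 0.0452). C1qb stood at -0.50 ± 0.10 and C1qc at -0.41 ± 0.07 (log2, SE; edgeR adjusted p = 0.127 and 0.0697), and neither gene's day-6 and day-1 libraries overlapped. Of 20 complement genes, 1 fell, 10 were lower and 1 (Itgam) was higher at an unadjusted p under 0.05, and the median was -0.37. Over all genes 4.03% were lower and 2.8% higher at that level. Of 26 macrophage and monocyte genes none passed; 8 were lower and 1 higher at an unadjusted p under 0.05, and the median was -0.05. Mrc1, the mannose receptor, had 17.9, 20.9 and 19.5 CPM on day 6, against 31.0, 26.5 and 29.6 CPM on day 1 (log2 fold change -0.58 ± 0.09, SE; edgeR adjusted p = 0.053). Mpeg1, which encodes a pore-forming protein of macrophages, had the opposite sign, with 32.0, 28.1 and 29.4 CPM on day 6, against 19.2, 22.96 and 17.8 CPM on day 1 (log2 fold change 0.58 ± 0.09, SE; edgeR adjusted p = 0.053).

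Folh1 and Cenpf rose. Folh1 encodes a peptidase that releases glutamate from N-acetylaspartylglutamate, and it had 22.6, 21.7 and 22.4 CPM on day 6, against 14.3, 15.2 and 15.6 CPM on day 1. Its IgG values of 19.1, 20.2 and 19.6 CPM lay between, nearer to day 6; the log2 fold change was 0.57 ± 0.07 (SE; edgeR adjusted p = 0.0107). Cenpf, a kinetochore protein of dividing cells, had 2.64, 1.93 and 2.74 CPM on day 6, against 0.619, 0.578 and 0.612 CPM on day 1, with IgG at 0.892, 0.692 and 1.26 CPM. The log2 fold change was 2.01 ± 0.26 (SE; edgeR adjusted p = 0.015), at low counts. Of 30 cell cycle genes, 1 rose, 11 were higher and 3 lower at an unadjusted p under 0.05, where 2.8% and 4.03% of all genes were, and the median was 0.39. Without day-6 library 1 the median was 0.24 and 7 were higher. The members higher at that level act in mitosis, such as Prc1 (0.82), Cdc20 (0.78) and Bub1 (0.81, log2), and the 3 lower ones were the replication helicase genes Mcm2, Mcm3 and Mcm5, at -0.30, -0.52 and -0.46. The proliferation marker Mki67 had 8.47, 5.38 and 6.82 CPM on day 6, against 7.46, 5.23 and 4.18 CPM on day 1, with overlap.

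Set against IgG, day 6 gave no call. In edgeR's quasi-likelihood test 0 of 15461 genes (0%) passed for day 6 minus IgG, with 557 at an unadjusted p under 0.05 (3.6%). DESeq2 and limma-voom also called 0, with 566 and 588 genes at that level. Day 1 minus IgG had 26 calls (0.168%) in the same fit, 25 of them higher (0.162%); both comparisons with IgG share its 3 libraries. The 14 lower genes stood between -0.48 (Dok2) and 0.30 (Icam1) for day 6 minus IgG on the log2 scale, and the 95% interval held 0 for 10 of the 16 called genes. In Cx3cl1 that interval was 0.08 to 0.51 and in Nfkbie 0.04 to 0.45, both above 0. It also lay above 0 in Folh1 and in Cenpf, from 0.80 to 1.91, and below 0 in Dok2, from -0.81 to -0.14, and in C1qa. A p that misses the threshold does not show that day 6 had returned to the IgG level.

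**Figure D2:**
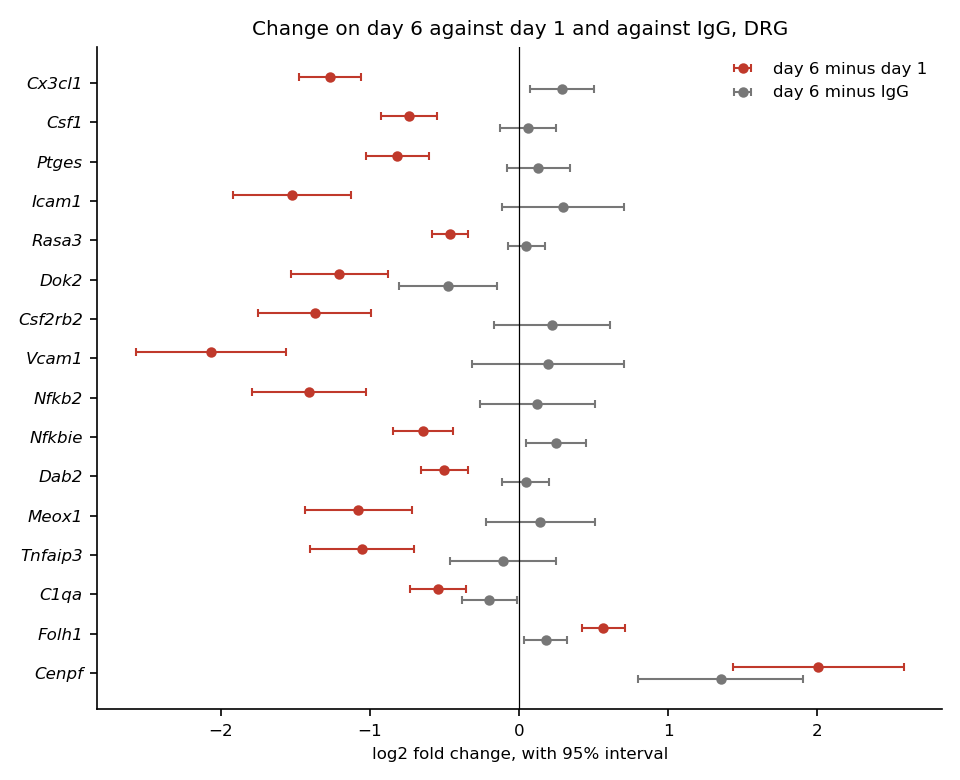
Log2 fold change of the 16 called genes in DRG with its 95% interval (horizontal axis), for day 6 minus day 1 (red) and day 6 minus IgG (grey). The red intervals lie away from 0 by the choice of the genes, and 10 of the 16 grey intervals hold 0.

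MHC class I and interferon genes had lower values on day 6, without a call. All 14 MHC class I presentation genes had a negative log2 fold change, with a median of -0.45, and 6 were lower at an unadjusted p under 0.05. Over all genes 51.5% were negative and 4.03% were lower at that level. Of the 24 type I interferon-stimulated genes all were negative with a median of -0.52, and 5 were lower at that level. The 18 interferon-gamma targets were all negative too, with a median of -0.67, and 3 were lower. Of the 10 MHC class II presentation genes none had an unadjusted p under 0.05, 8 were negative and the median was -0.15. In the interferon lists 1 library on each side stood out. The antiviral gene Mx1 had 4.36, 1.41 and 1.11 CPM on day 6, against 2.84, 16.3 and 3.94 CPM on day 1, so that day-6 library 1 and day-1 library 2 were the high ones of their groups. Leaving out each agonist library in turn moved the median of the type I list between -0.95 and -0.19, and its number of lower genes at an unadjusted p under 0.05 between 1 and 19. For the interferon-gamma targets the median moved between -0.90 and -0.28, the smallest without day-1 library 2, and the number of lower genes between 1 and 9. For the MHC class I list the median moved between -0.58 and -0.24.

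Genes of the unfolded protein response and collagens also had mostly lower values. Of 23 unfolded protein response genes 22 were negative and 9 were lower at an unadjusted p under 0.05, where 51.5% and 4.03% of all genes were. Their median was -0.12. Hspa5, the chaperone BiP, had 366, 368 and 388 CPM on day 6, against 485, 436 and 444 CPM on day 1 (log2 fold change -0.28 ± 0.07, SE; edgeR adjusted p = 0.253). Each day-6 library was below each day-1 library, and the IgG libraries had 426, 368 and 369 CPM. Of 38 collagen genes 29 were negative and 12 were lower at an unadjusted p under 0.05, with a median of -0.20. Col3a1, a fibrillar collagen of fibroblasts, had 467, 536 and 524 CPM on day 6, against 735, 679 and 772 CPM on day 1 (log2 fold change -0.52 ± 0.11, SE; edgeR adjusted p = 0.229). Of 21 markers of fibroblasts and meningeal cells 13 were negative, with a median of -0.21. At an unadjusted p under 0.05, 6 were lower and none higher. With each agonist library left out in turn the median was -0.29 to -0.07, and 3 to 7 were lower. The summed level of these markers was 6833 to 7541 CPM on day 6 and 8374 to 8976 CPM on day 1. Its part in the collagen values was not tested, and any genes in both lists were counted in each.

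**Figure D3:**
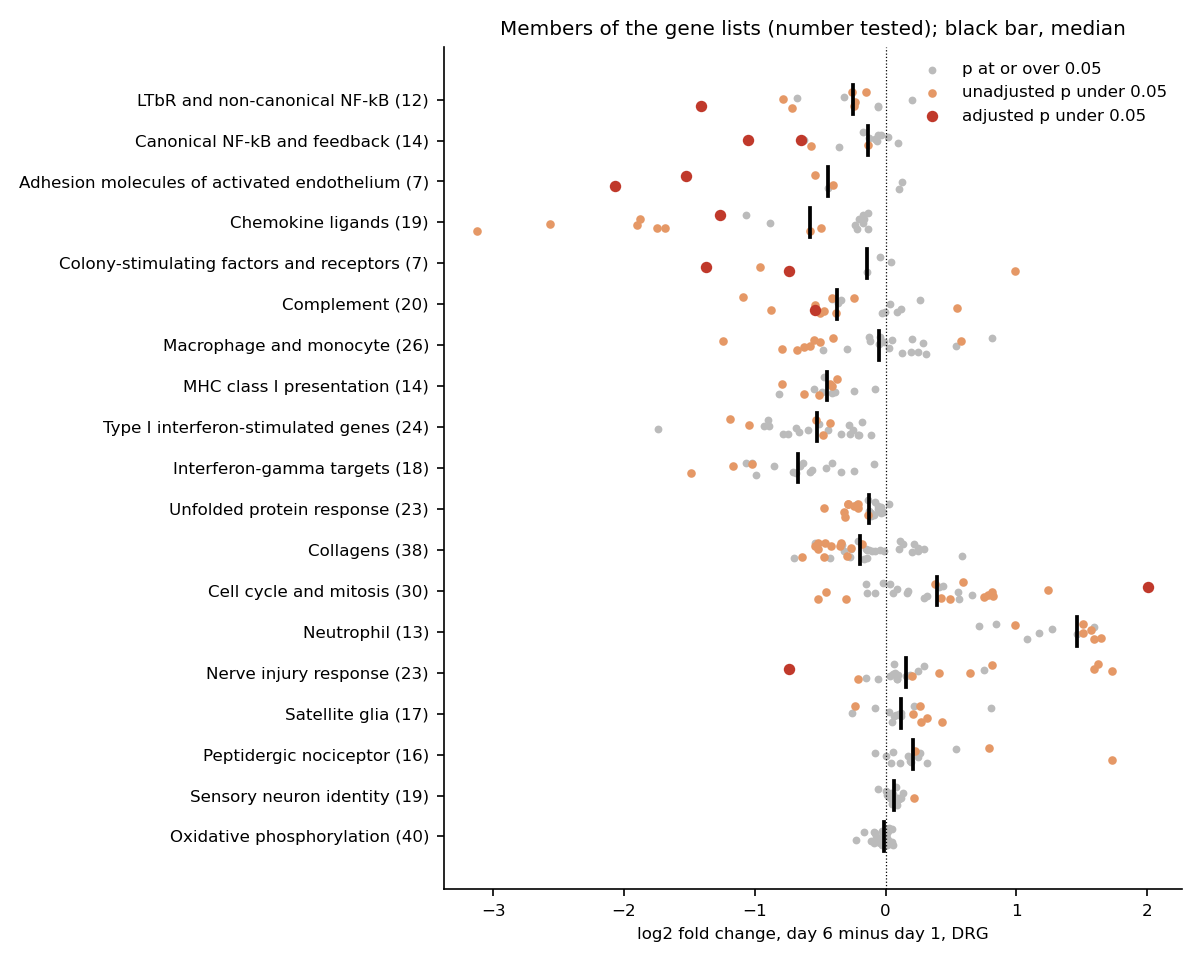
Log2 fold change, day 6 minus day 1 in DRG (horizontal axis), of the tested members of 19 gene lists, with the number tested in brackets. Each point is a gene, coloured by its p, and the black bar is the list's median; chemokine and interferon lists lie left of 0, and neutrophil genes lie right of it.

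None of the neuronal genes described here passed the threshold. Of 19 sensory neuron identity genes 18 were positive, against 48.5% of all genes, with a median of 0.07, and 1 was higher at an unadjusted p under 0.05. Calca, the peptide CGRP of nociceptors, had 1237, 1077 and 1022 CPM on day 6, against 866, 910 and 1078 CPM on day 1 (log2 fold change 0.23 ± 0.10, SE; edgeR adjusted p = 0.708). The sodium channel Scn9a had 238, 216 and 256 CPM on day 6, against 198, 196 and 217 CPM on day 1 (log2 fold change 0.22 ± 0.07, SE; edgeR adjusted p = 0.533), and the heat-gated channel Trpv1 stood at 0.19 ± 0.27. For Calca, Scn9a and Trpv1 the groups overlapped. Of 18 neuropeptide genes 16 were positive, with a median of 0.24, and of 16 peptidergic nociceptor genes 15 were positive, with a median of 0.21. In each list 3 genes were higher and none lower at an unadjusted p under 0.05, where 2.8% and 4.03% of all genes were. Any genes in both lists were counted in each. With each agonist library left out in turn both medians stayed between 0.11 and 0.35 and 1 to 6 genes of each were higher. Of 18 non-peptidergic nociceptor and itch genes 14 were negative, with a median of -0.08, and none had an unadjusted p under 0.05. The lists of sodium, potassium, calcium and TRP channels and of transmitter receptors had medians between 0.03 and 0.05.

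Of 23 nerve injury response genes 1 fell (Csf1), and the median was 0.16. At an unadjusted p under 0.05, 7 were higher and 2 lower, where 2.8% and 4.03% of all genes were. Without day-1 library 2 the median was 0.07 and 6 were higher; with the other agonist libraries left out in turn it was 0.09 to 0.21. Among the 7, Ecel1, a neuronal endopeptidase induced by axon damage, had 1.89, 3.57 and 1.40 CPM on day 6, against 0.848, 0.639 and 0.782 CPM on day 1 (log2 fold change 1.59 ± 0.34, SE; edgeR adjusted p = 0.175). Sprr1a, a regeneration-associated gene, had 2.41, 2.52 and 2.35 CPM on day 6, against 1.43, 0.639 and 0.272 CPM on day 1 (log2 fold change 1.63 ± 0.49, SE; edgeR adjusted p = 0.512). Both genes were low and did not overlap between the times. Atf3, the transcription factor most used as a marker of injured neurons, had 19.4, 20.8 and 16.3 CPM on day 6, against 18.3, 16.9 and 10.8 CPM on day 1, with overlap and a log2 fold change of 0.30 ± 0.29 (SE; edgeR adjusted p = 0.874). Of 17 satellite glia genes 5 were higher and 1 lower at an unadjusted p under 0.05; Fabp7, a fatty acid-binding protein of these cells, had 251, 195 and 188 CPM on day 6, against 164, 180 and 180 CPM on day 1.

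Markers of blood granulocytes and muscle differed between the libraries as well. All 13 neutrophil genes tested, of 17 listed, were positive with a median of 1.46, where 48.5% of all genes were positive. At an unadjusted p under 0.05, 6 were higher, where 2.8% of all genes were, and none passed. Their summed level was 198 to 580 CPM on day 6 and 79.3 to 191 CPM on day 1. S100a8 had 107, 49.6 and 32.6 CPM on day 6, against 32.0, 14.4 and 20.3 CPM on day 1, and the IgG libraries had 55.8, 35.6 and 74.3 CPM; day 1 was the low group. The number of neutrophil genes at an unadjusted p under 0.05 was 0 without day-6 library 1 or without day-1 library 2. With the neutrophil level of each library as a covariate, added after seeing the data, 2 genes were called, Cx3cl1 and Icam1; this level is nearly split between the groups. The other 14 called genes did not pass with this covariate, and they kept their direction. Their log2 fold changes were, for instance, -2.20 in Vcam1, -1.12 in Nfkb2, -1.38 in Csf2rb2 and 0.60 in Folh1. Without the covariate these were -2.07, -1.41, -1.37 and 0.57. Neutrophil level and day cannot be told apart in this fit, and the part of neutrophil content was not tested. Skeletal muscle genes summed to 131 to 719 CPM on day 6 and 120 to 8177 CPM on day 1, with none of 26 at an unadjusted p under 0.05. With the muscle level as a covariate 11 genes were called, all among the 16, and 9 of these were lower.

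**Figure D4:**
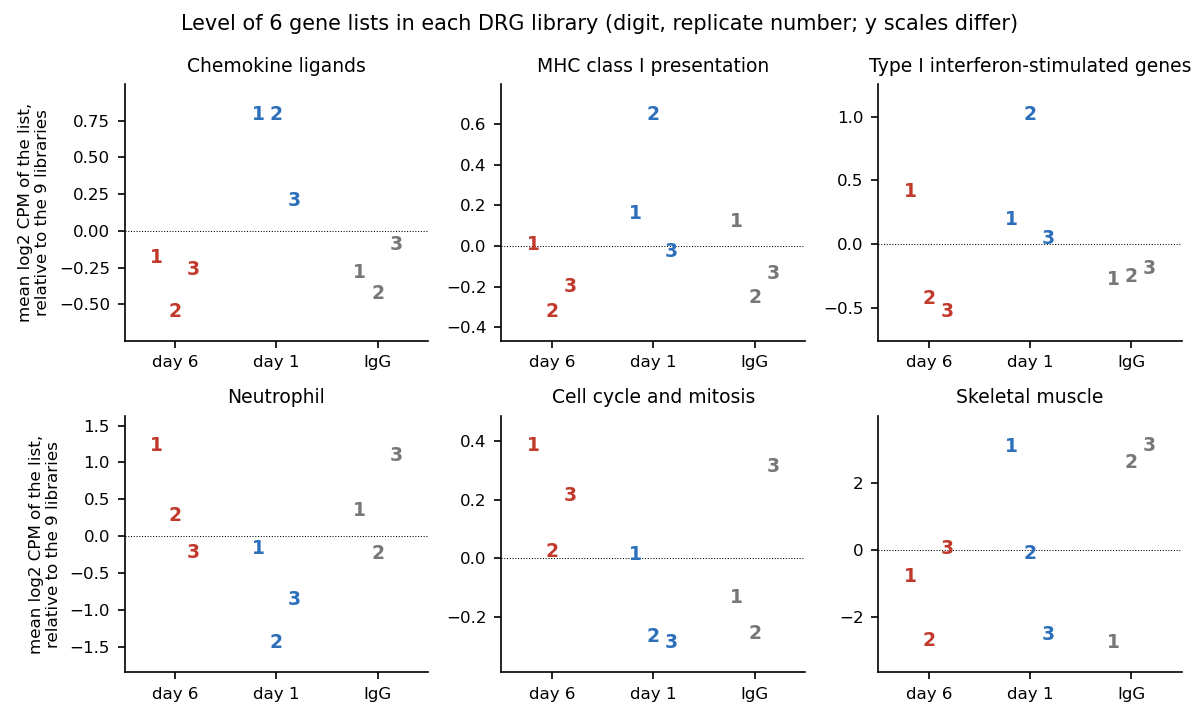
Mean log2 CPM of 6 gene lists in each DRG library relative to the 9 libraries (vertical axes, which differ in scale); digits are the replicate numbers of day 6 (red), day 1 (blue) and IgG (grey). Chemokine ligands are higher in the 3 day-1 libraries, interferon-stimulated genes are highest in day-1 library 2, and neutrophil genes are lowest in day-1 library 2.

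The change between the times differed from that in the paw skin, the injected site, for 133 of 16461 genes (0.808%; edgeR quasi-likelihood interaction, adjusted p under 0.05). C1qa had 125, 114 and 80.6 CPM in day-6 paws, against 34.0, 48.5 and 32.7 CPM in day-1 paws, a log2 fold change of 1.47 ± 0.20 (SE), where DRG had -0.54. The difference, DRG minus paw, was -2.02 ± 0.23 (SE; edgeR adjusted p = 0.00257). Csf1r had 226, 209 and 161 CPM in day-6 paws, against 79.9, 90.5 and 67.7 CPM in day-1 paws, and its difference was -1.36 ± 0.20 (SE). Dok2, Dab2 and Il2rg had a positive log2 change in paw, at 0.79 ± 0.26, 0.90 ± 0.23 and 0.78 ± 0.25 (SE), and a negative one in DRG. None of these paw changes passed on its own (edgeR adjusted p = 0.228, 0.12 and 0.218). The DRG change of Il2rg did not pass either. Il2rg was negative in the lumbar spinal cord too, at -1.15 ± 0.22 (log2, SE). Its difference, DRG minus cord, was 0.20 and did not pass (edgeR adjusted p = 0.86). In Nfkb2, Cx3cl1 and Csf2rb2 the paw changes were small, at -0.11, -0.24 and -0.16 on the log2 scale. Nfkb2 for instance had 70.9, 51.6 and 51.9 CPM in day-6 paws, against 67.3, 66.8 and 54.6 CPM in day-1 paws, while its DRG level fell. The other genes called in DRG did not pass the interaction with paw. They were Vcam1, Icam1, Csf1, Ptges, Nfkbie, Tnfaip3, Meox1, Rasa3, Folh1 and Cenpf. A miss does not show that both tissues changed alike. With each DRG agonist library left out in turn the number of differing genes was 52 to 87, and Il2rg and Csf2rb2 passed in 1 of 6 fits.

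Against the lumbar spinal cord, 1 of 16044 genes (0.00623%) differed in its change, Cx3cl1. The cord had 346, 357 and 369 CPM of Cx3cl1 on day 6, against 422, 413 and 437 CPM on day 1, a log2 fold change of -0.25 ± 0.06 (SE). The difference, DRG minus cord, was -0.997 ± 0.110 (SE; edgeR adjusted p = 0.00358), and it passed with each DRG agonist library left out in turn. Vcam1 had a difference of -1.68 ± 0.26 (SE; edgeR adjusted p = 0.0977), short of the threshold.

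**Figure D5:**
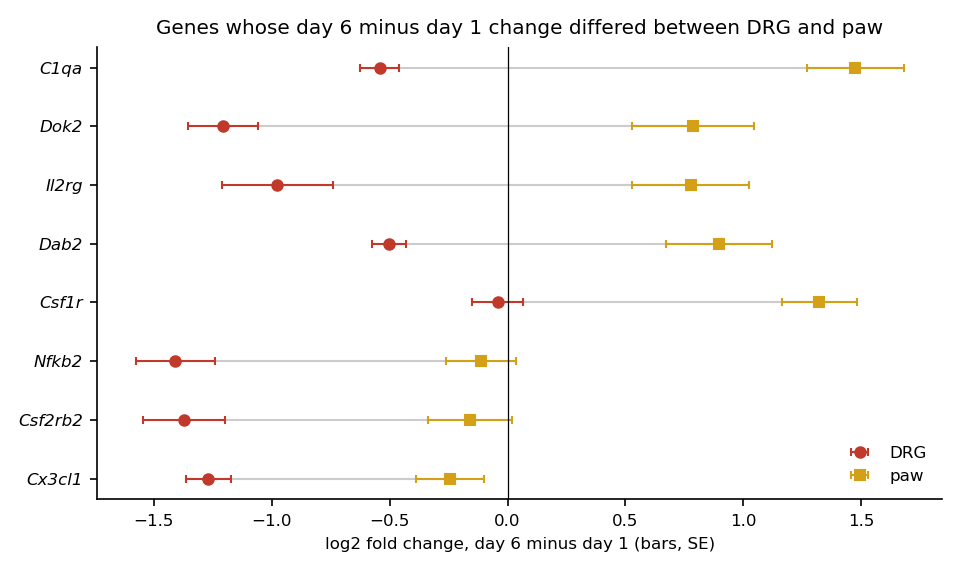
Log2 fold change, day 6 minus day 1 (horizontal axis, bars are SE), of the 8 named genes whose change differed between DRG (red circles) and paw (yellow squares). C1qa, Dok2, Il2rg, Dab2 and Csf1r lie right of 0 in paw, and all 8 DRG values lie left of the paw values.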

How the data were processed

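RNA was made into poly(A)-selected, strand-marked libraries from about 500 ng of total RNA and read as 50 bp single ends, per the labels' protocols. The submitters' processing notes name TopHat2, HTSeq and the mm9 build; the strand setting is not given in the sources used here. The deposited files hold whole-number read counts per gene for 22609 gene symbols, with 5 summary rows that were removed. Counts of the 9 DRG libraries were filtered with filterByExpr, scaled by TMM and fitted together with edgeR 4.0.16 (R 4.3.3; robust quasi-likelihood F test), and p-values were adjusted by Benjamini-Hochberg over all genes tested. The SE is the log2 fold change divided by the root of F. DESeq2 1.42.0 and limma 3.58.1 (voom) were alternatives. Differences between tissues are interactions fitted over DRG and paw or DRG and cord libraries. List levels are mean log2 CPM with a prior count of 2. The day 6 minus day 1 fits of edgeR, limma-voom and DESeq2 and the DRG against paw interaction were tested on simulated data. The other steps were not. Named genes were those past the threshold with groups that did not overlap, plus a set list of pathway genes; other list members were named after their values were seen. The comparison and the 60 gene lists were chosen with earlier results of these data known. Of 1147 listed symbols 1142 were found in the files and 1036 were tested. Sequences are RefSeq's (GRCm38.p6).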

Additional observations from a re-analysis of the deposited data

Results flagged for a closer look

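The day 6 minus day 1 change differed between tissues in 9 results, each by the interaction test of the difference itself. DRG minus paw, it was -2.02 for C1qa, -1.36 for Csf1r, -1.99 for Dok2, -1.40 for Dab2, -1.02 for Cx3cl1, -1.29 for Nfkb2, -1.75 for Il2rg and -1.21 for Csf2rb2 on the log2 scale. DRG minus spinal cord, it was -0.997 for Cx3cl1. With each DRG agonist library left out in turn, the paw difference passed in 6 of 6 fits for C1qa, Csf1r and Dok2, in 5 of 6 for Cx3cl1, Dab2 and Nfkb2, and in 1 of 6 for Il2rg and Csf2rb2. The cord difference of Cx3cl1 passed in 6 of 6. DRG groups of 3 are too small for a test of single outlying libraries.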

How the results depend on the processing

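With 3 libraries a group, the count of calls was sensitive to the settings. The 16 calls (2 higher, 14 lower) became 27 (5 and 22) with no filter on low counts, 104 (13 and 91) with DESeq2, and 2 (0 and 2) once the neutrophil level entered as a covariate, a setting added with the data in view; with the muscle level as a covariate 9 were lower. All 16 remained among the DESeq2 calls. RLE and upper-quartile scaling, the stricter filter, limma-voom, the 6 agonist libraries alone and leaving out IgG library 1 gave 16 to 20 calls. With each agonist library left out in turn there were 1 to 24 calls, 0 to 3 higher and 1 to 21 lower; the cause was not tested. Over these settings no named gene past the threshold changed direction; 185 repeats of these genes stayed past it and 103 did not. Day 6 minus IgG gave 0 calls in each alternative run. Tissue interactions numbered 716 (paw) and 68 (cord) with limma-voom, and 52 to 87 and 1 to 3 with a library left out.

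The labels do not say whether replicate numbers pair the samples. The same-numbered deviations of day 6 and day 1 correlated at 0.0808, 0.129 and -0.273 across genes. Differently numbered ones correlated at -0.38 to 0.358. Deviations from a mean of 3 libraries are tied to one another, so these correlations cannot decide it. Per1 rose with the replicate number in each DRG group. The replicate block gave 17 calls, 11 of them shared with the 16, and 7 (1 higher, 6 lower) on the 6 agonist libraries alone; the interactions numbered 133 and 1 with the block.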

Other observations

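Clock genes had no call between the times. Of 23 tested, 4 were lower at an unadjusted p under 0.05, where 4.03% of all genes were, and the median was 0.06. Arntl, which encodes the clock activator BMAL1, had 12.6, 10.6 and 11.3 CPM on day 6, against 17.99, 16.1 and 12.9 CPM on day 1 (log2 fold change -0.45 ± 0.12, SE; edgeR adjusted p = 0.358), and the IgG libraries had 7.37, 7.46 and 7.47 CPM, below both. Per1, a light- and glucocorticoid-responsive repressor of the clock, ranged widely within each group. It had 35.9, 100.5 and 143 CPM on day 6, against 34.7, 64.1 and 118 CPM on day 1. The IgG libraries had 63.7, 119 and 159 CPM of Per1, so it rose with the replicate number in each group. Dbp and Nr1d1, outputs of the clock, stood at 0.30 ± 0.17 and 0.20 ± 0.13 on the log2 scale (SE).

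Lists of housekeeping function had medians close to 0. The medians were -0.01 for 40 oxidative phosphorylation genes, -0.02 for 38 ribosomal protein genes and -0.05 for 22 cholesterol synthesis genes, and none of their members passed. Negative log2 fold changes numbered 26, 22 and 19 of these, the last being 19 of 22 cholesterol synthesis genes, where 51.5% of all genes were negative. Of 20 Schwann cell and peripheral myelin genes 18 were negative with a median of -0.14. At an unadjusted p under 0.05, 2 were lower, where 4.03% of all genes were.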
